A study of Mus musculus with 32 samples.

Results

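Ephx1 and Aldh2, 2 genes for liver enzymes that remove reactive chemicals, were followed across 32 mouse liver arrays. They were chosen from the measured values, because both lay higher in livers with the Cre transgene at most times, so that difference is given as a description and carries no test. The array held 12488 probe sets, which name 8251 genes by a probe set of their own. Ephx1 had 1 such probe set (101587_at) and Aldh2 had 3 (96058_s_at, 96057_at and 161997_f_at), and all 4 passed the filter on low values that kept 9249. Ephx1 lies at chr1:180989556-181017569 and Aldh2 at chr5:121566027-121593824 (GRCm38.p6). Values are log2 expression values made with RMA, which corrects, normalizes and summarises the probes of a probe set, so a difference of 1 is a doubling.

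All livers came from male C57BL/6 mice aged 3 months in which both copies of Rps6, the gene of ribosomal protein S6, were floxed. The Cre plus groups also carried mx-cre, a Cre recombinase driven by an interferon-responsive promoter, and the Cre minus groups lacked it. Polyinosinic-polycytidylic acid, a double-stranded RNA that induces interferon, was injected to delete Rps6. The sources used here do not give whether Cre minus mice were injected, nor the delay before surgery. Because the promoter answers to interferon, recombination is not limited to hepatocytes. Livers were taken at 0, 20, 30 and 40 h after partial hepatectomy, an operation that takes out some liver lobes and lets the rest regrow. Each of the 8 groups held 4 livers, except Cre plus with 3 at 30 h and 5 at 40 h. Every group had arrays in both labelled batches, PHX2 and PHX3. Separate mice are not stated for the livers of a group, so p-values stand for the spread between samples only. No sham-operated livers are named.

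Microsomal epoxide hydrolase, the product of Ephx1, sits in the endoplasmic reticulum and adds water to epoxides, many of them made by cytochrome P450 enzymes, to give less reactive diols. Mitochondrial aldehyde dehydrogenase, the product of Aldh2, oxidises acetaldehyde, formed from ethanol by alcohol dehydrogenases, Cyp2e1 and catalase, and also aldehydes from lipid peroxidation. Both enzymes are abundant in hepatocytes.

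A RefSeq promoter window was matched for 1 of the 2 genes, Ephx1. The window runs from 250 bases before to 50 bases after the annotated start (chr1:181017520-181017819, minus strand, GRCm38.p6), and is shown as sequence context for the gene. Capitals mark the GC box, GGGCGG.

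Ephx1 promoter: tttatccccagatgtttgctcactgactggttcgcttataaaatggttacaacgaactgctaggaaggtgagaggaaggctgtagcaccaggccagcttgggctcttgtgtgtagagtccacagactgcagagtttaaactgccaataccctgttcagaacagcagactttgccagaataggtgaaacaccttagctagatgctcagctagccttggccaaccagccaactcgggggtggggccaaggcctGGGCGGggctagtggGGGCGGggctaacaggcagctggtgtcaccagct

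The GC box stood at 2 places in this window, and 35.7% of the 32851 RefSeq windows of this length hold it on either strand. The letters CCAAT stood at 1 place (37.4% of windows) and TATAAA at 1 place (13.6%). Searched on both strands, the window held no antioxidant response element core TGACNNNGC (12.4% of windows), no xenobiotic response element core GCGTG (32.4%), no E-box CACGTG (7.15%), no nuclear receptor motif AGGTCA (16.3%) and no p53 decamer (8.36%). The searched motifs could overlap one another. A match or its absence describes these letters only.

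The labels were checked first. The Rps6 probe set, also annotated to the pseudogene Rps6-ps4, read 10.99 to 11.82 in 16 livers without Cre but 6.24 to 7.69 in 16 livers with it. All 18 hepatocyte markers on the array lay above the array's median on every array. Mean correlation with the other arrays of the group was under 0.95 for 3 arrays, Cre minus 30 h replicate C, Cre plus 30 h replicate A and Cre plus 40 h replicate D. The Actb 3′ minus 5′ difference, a sign of RNA integrity, was 1.06 ± 0.22 (SD, n = 4) in Cre minus and 0.84 ± 0.04 (n = 3) in Cre plus livers at 30 h, and 0.92 to 1.05 in the other groups.

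Ephx1 was higher in every Cre plus liver than in any Cre minus liver. At 0 h its log2 values were 10.62, 10.41, 10.34 and 10.57 in Cre minus livers A to D and 11.07, 11.40, 11.10 and 11.31 in Cre plus livers A to D. At 20 h they were 10.17, 10.62, 10.46 and 10.57 in Cre minus and 10.85, 11.08, 11.16 and 11.10 in Cre plus livers. The lowest Cre plus liver of each time thus lay above the highest Cre minus liver. At 30 h the values were 10.16, 10.37, 10.64 and 10.36 in Cre minus and 11.09, 10.87 and 11.12 in Cre plus livers. At 40 h they were 10.41, 10.55, 10.26 and 10.35 in Cre minus livers and 11.06, 11.06, 10.92, 10.68 and 11.40 in Cre plus livers A to E. Cre plus 40 h held both the second highest Ephx1 value of all livers, in E, and the lowest Cre plus value, in D, which is one of the 3 arrays that stood apart.

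The Ephx1 difference, Cre plus minus Cre minus in the fit with batch as a term, was 0.74 at 0 h (SE 0.13, 1.67-fold). It was 0.60 at 20 h (SE 0.13, 1.51-fold) and 0.63 at both 30 h (SE 0.14, 1.55-fold) and 40 h (SE 0.12, 1.54-fold). From 0 to 40 h the PHX2 livers alone gave 0.72, 0.62, 0.50 and 0.69, and the PHX3 livers alone 0.76, 0.57, 0.82 and 0.61. All 8 within-batch values were thus positive. Across all times Cre minus livers spanned 10.16 to 10.64 (median 10.41, n = 16), and Cre plus livers spanned 10.68 to 11.40 (median 11.09, n = 16). Of 9249 probe sets, 2 (0.0216%) had every Cre plus array above every Cre minus array, Ephx1 and Mdm2, the gene of the p53 ubiquitin ligase. The gap between the ranges was 0.04 for Ephx1, and 0.23 without the 3 arrays that stood apart. Within a single time, such separation was met by 1.85, 0.703, 2.62 and 3.03% of probe sets at 0, 20, 30 and 40 h. Because the genes were chosen from this contrast, nothing is read from these counts.

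**Figure D1:**
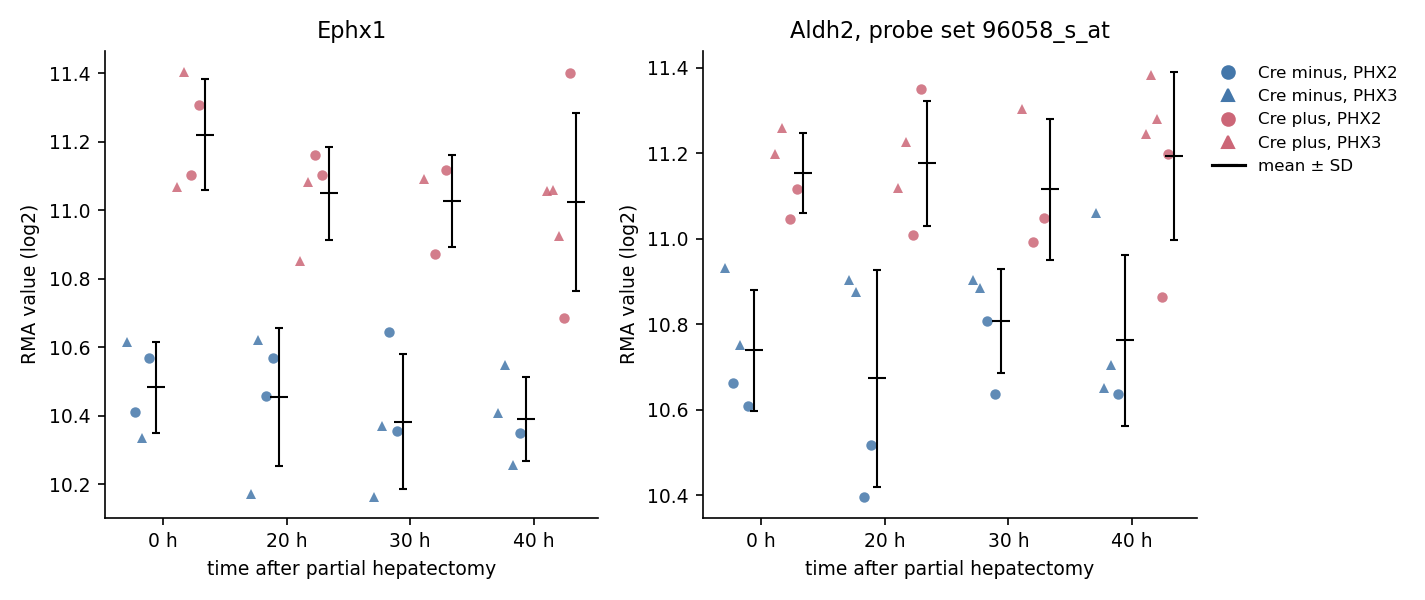
Log2 RMA values of Ephx1 and of Aldh2 probe set 96058_s_at in each liver (points) by time after partial hepatectomy, coloured by genotype and shaped by batch, with group means ± SD in black. Ephx1 values of Cre plus livers start at 10.68, above the highest Cre minus value of 10.64. Within a time, this Aldh2 probe set overlaps at 40 h only. The 2 vertical axes differ.

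Aldh2 was higher in Cre plus livers by a smaller amount, with an overlap between genotypes that depended on the probe set. On probe set 96058_s_at, the log2 values at 0 h were 10.93, 10.66, 10.75 and 10.61 in Cre minus livers A to D and 11.20, 11.26, 11.05 and 11.12 in Cre plus livers A to D. At 20 h they were 10.90, 10.87, 10.40 and 10.52 in Cre minus and 11.12, 11.23, 11.01 and 11.35 in Cre plus livers. At both times the groups were apart. At 30 h the values were 10.90, 10.89, 10.81 and 10.64 in Cre minus and 11.30, 10.99 and 11.05 in Cre plus livers, again apart. At 40 h they were 11.06, 10.65, 10.71 and 10.64 in Cre minus livers and 11.24, 11.38, 11.28, 10.86 and 11.20 in Cre plus livers A to E. There Cre minus A lay above Cre plus D, the only crossing within a time. Over all times 11 of the 16 Cre plus livers lay above every Cre minus liver.

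The 96058_s_at difference was 0.42 at 0 h (SE 0.09, 1.33-fold) and 0.50 at 20 h (SE 0.09, 1.42-fold). It was 0.34 at 30 h (SE 0.10, 1.27-fold) and 0.46 at 40 h (SE 0.09, 1.38-fold). In PHX2 livers alone it was 0.44, 0.72, 0.30 and 0.39 from 0 to 40 h, and in PHX3 livers alone 0.39, 0.28, 0.41 and 0.50. The other Aldh2 probe sets ran the same way on average, with more overlap. On 96057_at the genotypes overlapped at 0 and 40 h, and on 161997_f_at they overlapped at 0, 20, 30 and 40 h. The difference was 0.29, 0.51, 0.42 and 0.25 at the successive times on 96057_at and 0.36, 0.44, 0.46 and 0.39 on 161997_f_at. The 3 Aldh2 probe sets are annotated to the same gene, so they are no independent measures of it. Whether each reads this gene only was not tested. Across the 32 arrays 96058_s_at correlated with 96057_at at r = 0.93 and with 161997_f_at at r = 0.77, which describes arrays sharing groups and batches.

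The batches differed for Aldh2, and no batch difference was detected for Ephx1. The fitted PHX3 minus PHX2 difference was 0.21 on 96058_s_at (SE 0.05, limma adjusted p = 0.0031), 0.24 on 96057_at (SE 0.04, adjusted p = 0.00011) and 0.65 on 161997_f_at (SE 0.05, adjusted p = 7.0e-09). For Ephx1 it was −0.06 (SE 0.06, 95% interval −0.19 to 0.08, adjusted p = 0.54). Thus 3 of the 4 probe sets were called, all higher in PHX3, where 27.0% of all probe sets were called and 9.77% were called higher; a call means a Benjamini-Hochberg adjusted p under 0.05 over the 9249 probe sets. With quantile normalization the 96058_s_at batch difference was 0.12 and lost its call (adjusted p = 0.060).

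On 96058_s_at the genotypes were apart within each batch, all times together. In PHX2 the highest of 7 Cre minus values on 96058_s_at was 10.81 and the lowest of 8 Cre plus values 10.86. In PHX3 the highest of 9 Cre minus values was 11.06 and the lowest of 8 Cre plus values 11.12. On 96057_at and 161997_f_at the genotypes were apart in PHX2 and overlapped in PHX3. Of 9249 probe sets, 5 (0.0541%) were apart in both batches with Cre plus higher. They were Ephx1, Aldh2 96058_s_at, Mdm2, Phlda3, a gene for a pleckstrin homology domain protein induced by p53, and 1 probe set unnamed here. In PHX2 alone 0.0865% of probe sets were apart this way, and in PHX3 alone 0.119%. As the genes were chosen from the genotype contrast, nothing is read from these counts.

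**Figure D2:**
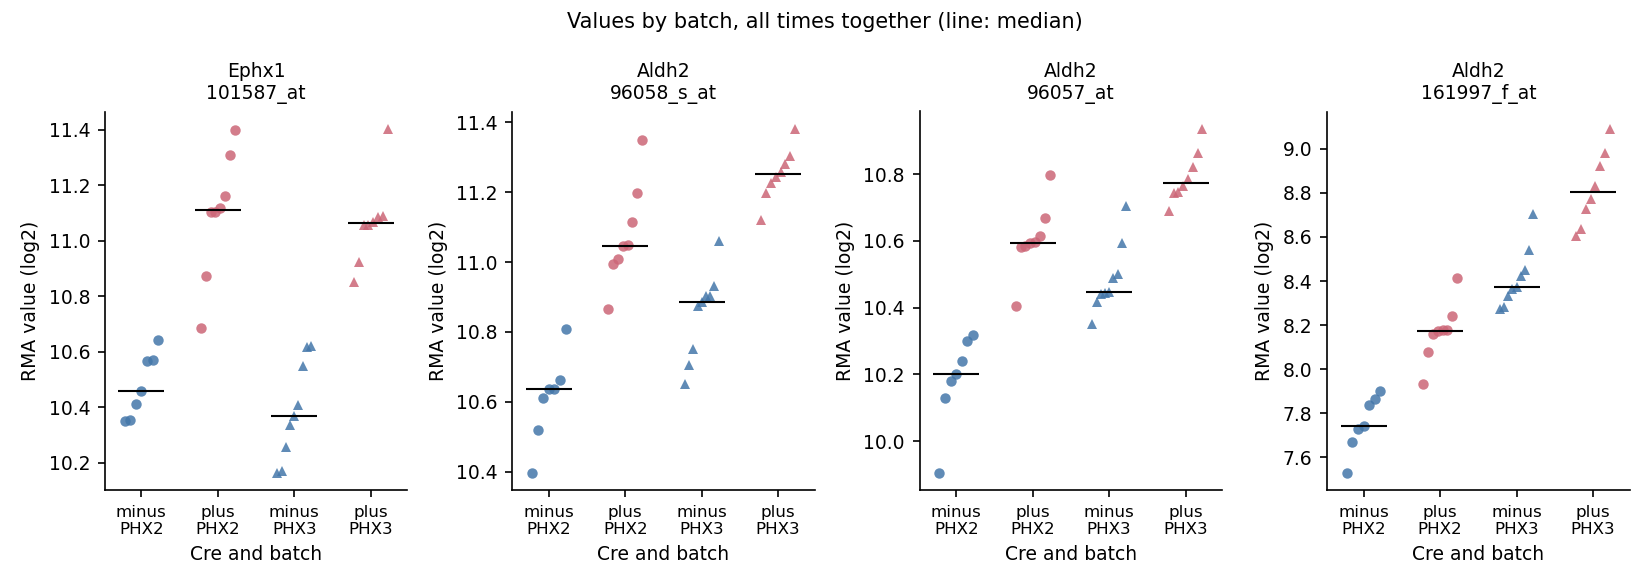
Log2 RMA values of the 4 probe sets in each liver, all times together, by genotype and batch, with the median of each column as a line; the vertical axes differ. Ephx1 levels are alike in both batches, while all 3 Aldh2 probe sets lie higher in PHX3, by 0.65 on 161997_f_at, and 96058_s_at is apart by genotype within each batch.

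Ordered by mean, the 4 Cre minus groups were the lowest and the 4 Cre plus groups the highest for both genes. Ephx1 ran from 10.38 ± 0.20 (SD) in Cre minus 30 h, 10.39 ± 0.12 at 40 h, 10.45 ± 0.20 at 20 h, then 10.48 ± 0.13 at 0 h to 11.02 ± 0.26 in Cre plus 40 h, 11.03 ± 0.13 at 30 h, 11.05 ± 0.14 at 20 h, then 11.22 ± 0.16 at 0 h. Neighbours within a genotype had overlapping ranges, and the step from Cre minus 0 h to Cre plus 40 h, 0.54, was the only one between groups that did not overlap. The last step, from Cre plus 20 h to 0 h, was 0.17, above the larger SD of the pair but with overlapping ranges. Aldh2 96058_s_at ran from 10.67 ± 0.25 in Cre minus 20 h, 10.74 ± 0.14 at 0 h, 10.76 ± 0.20 at 40 h, then 10.81 ± 0.12 at 30 h to 11.12 ± 0.17 in Cre plus 30 h, 11.15 ± 0.09 at 0 h, 11.18 ± 0.15 at 20 h, then 11.19 ± 0.20 at 40 h. Its only step between neighbours with separate ranges was 0.31, again at the change of genotype.

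Kupffer cell and macrophage markers, which are not hepatocyte genes, had a lower mean level in Cre plus livers at every time, also at 0 h. The mean level of the 13 markers, from 0 to 40 h, was 8.0, 7.85, 7.60 and 7.73 in Cre minus and 7.55, 6.98, 7.04 and 7.04 in Cre plus livers. Single Cre minus livers lay between 7.29 and 8.18 and single Cre plus livers between 6.68 and 7.85. Of the 13, none was called at 0 h in limma, and 5, 2 and 7 were called lower in Cre plus livers at 20, 30 and 40 h. An unadjusted p under 0.05 was met by 8, 11, 6 and 12 of the 13 from 0 to 40 h. No share of all probe sets is given for this unadjusted threshold, here or for later counts. The median differences were −0.38, −0.70, −0.40 and −0.64 from 0 to 40 h, against medians of all genes within 0.01 of 0. Of all probe sets 0.0649, 0.292, 0.281 and 5.35% were called between genotypes at 0, 20, 30 and 40 h, and 0.0216, 0.238, 0.151 and 3.07% were called lower. Clec4f, a Kupffer cell lectin, differed by −1.51 at 20 h, −1.15 at 30 h and −1.43 at 40 h (adjusted p from 5.8e-05 to 0.041). Cd5l, a macrophage-secreted protein, differed by −1.87, −1.74 and −1.43 (adjusted p from 0.0055 to 0.040). The other 3 called at 20 h were C1qa, C1qb and C1qc, the chains of complement C1q. Without the 3 arrays that stood apart, 7, 1 and 9 of the markers were called lower at these 3 times. The share of all probe sets in that setting is not given here. Of 6 erythroid markers, 2 were called lower at 20 and 40 h, Hba-a1 and Hbb-b2, which encode globins. Of the 18 hepatocyte markers, 2 were called between genotypes. Ttr, the gene of transthyretin, differed by −1.24 at 40 h (adjusted p = 0.023), and Ass1, a urea cycle enzyme, by 0.37 at 30 h (adjusted p = 0.0497). Of their 72 tests 11 had an unadjusted p under 0.05, and their mean level per group lay between 11.31 and 11.50. In bulk liver, fewer cells of a type and less RNA per cell cannot be told apart, and the part of these cells in the Ephx1 and Aldh2 levels was not tested.

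Whether the enzymes changed as the liver regrew was tested within each genotype, a measure the choice of genes did not use. None of the 4 probe sets was called in any of 10 comparisons, which makes 0 of 40 tests in limma, and 1 of 40 had an unadjusted p under 0.05. Over all probe sets, 7.37, 3.14 and 4.77% were called at 20, 30 and 40 h against 0 h in Cre minus livers and 9.07, 9.89 and 9.66% in Cre plus livers. Between successive later times the share was 1.02% from 30 to 40 h in Cre minus livers and 0.0% in the other 3 steps. Against 0 h, Ephx1 differed by −0.03, −0.10 and −0.08 in Cre minus livers (SE 0.13 each, adjusted p from 0.81 to 0.93). In Cre plus livers it differed by −0.17, −0.20 and −0.19 (SE 0.12 to 0.14, adjusted p from 0.36 to 0.47). The 95% intervals of these 6 values lay between −0.48 and 0.23, so a change of 0.5 in either direction was outside them. With array weights, which count divergent arrays less, the 30 h value in Cre plus livers was −0.34 and was called (adjusted p = 0.0040).

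For Aldh2 on 96058_s_at, the 6 differences from 0 h lay between −0.07 and 0.07 (SE 0.09 to 0.10, adjusted p from 0.73 to 0.99), with intervals between −0.26 and 0.26. On 96057_at they lay between −0.17 and 0.10. The lowest was Cre minus at 20 h, with an unadjusted p of 0.032 and an adjusted p of 0.18. On 161997_f_at they lay between −0.10 and 0.10. The 3 times share the 0 h livers of their genotype, so these values are not independent. The change of the genotype difference after surgery, built from the contrast that chose the genes, was −0.14, −0.10 and −0.11 for Ephx1 and 0.09, −0.07 and 0.05 for Aldh2 96058_s_at at 20, 30 and 40 h.

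**Figure D3:**
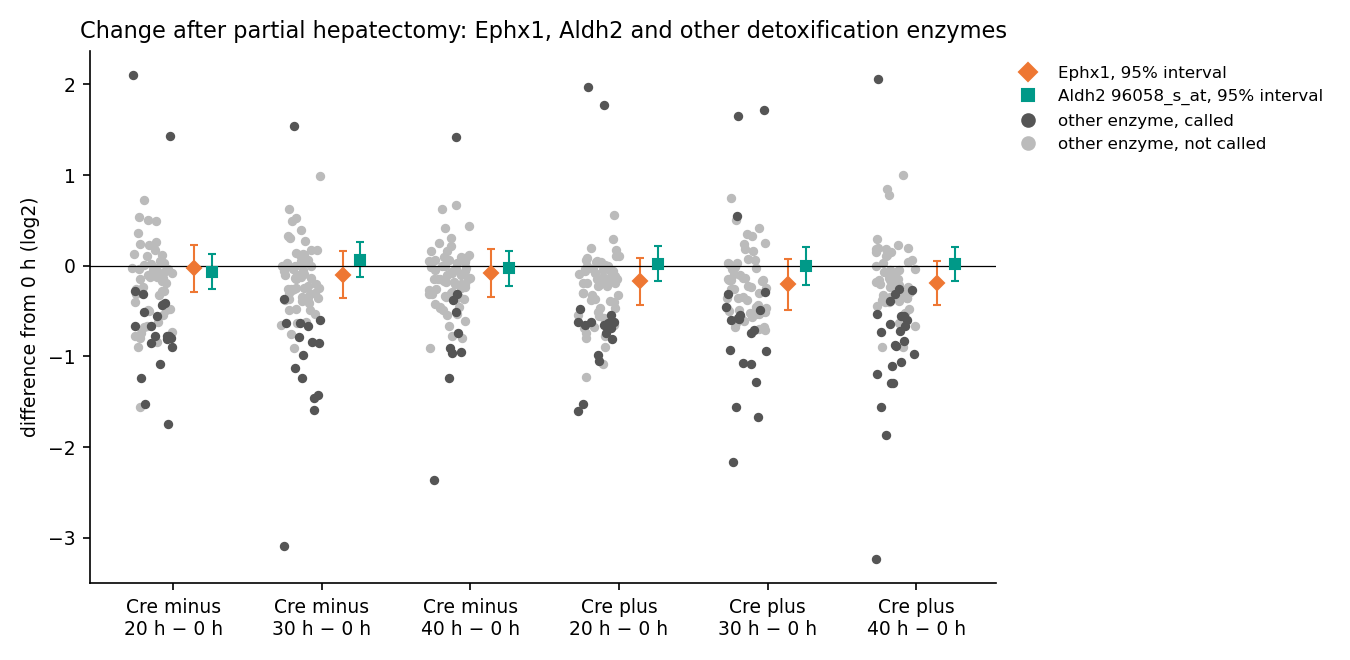
Log2 differences from 0 h at 20, 30 and 40 h in each genotype for Ephx1 and Aldh2 96058_s_at (with 95% intervals) and for 78 other detoxification enzymes (points, dark where called). Every interval of Ephx1 and Aldh2 96058_s_at includes 0 and lies between −0.48 and 0.26. Called enzymes reach down to −3.23 (Inmt) and up to 2.10 (Cyp2b10). On Aldh2 96057_at, not drawn, the Cre minus 20 h interval was −0.33 to −0.02.

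Other enzymes of the same functions did change after surgery. The 7 lists of detoxification enzymes held 78 tested genes besides Ephx1 and Aldh2. Of these, 27 were called at some time against 0 h in Cre minus livers, 25 lower and 2 higher, and 30 in Cre plus livers, 27 lower and 3 higher. Over either genotype this made 34 of 78 (43.6%), where 20.5% of all probe sets were called. The median difference from 0 h was −0.27, −0.25 and −0.18 in Cre minus and −0.26, −0.35 and −0.31 in Cre plus livers at 20, 30 and 40 h, against medians of all genes between −0.03 and 0.00. The count was 41 without the 3 arrays that stood apart, 63 with array weights, 3 in PHX2 alone and 26 in PHX3 alone. The shares of all probe sets called under those settings are not given here.

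On the list of alcohol oxidation and acetate use, whose enzymes act before and after Aldh2, 6 genes were tested. At 20, 30 and 40 h the counts called, all lower, were 2, 1 and 1 in Cre minus livers, where 7.37, 3.14 and 4.77% of all probe sets were called in either direction. In Cre plus livers they were 1, 1 and 3, where 9.07, 9.89 and 9.66% were called. Catalase (Cat), a peroxisomal enzyme, fell at every time, by 1.09, 0.98 and 0.74 in Cre minus livers and by 1.05, 1.07 and 1.29 in Cre plus livers (SE 0.19 to 0.22, adjusted p from 0.00022 to 0.035). Adh1, the main liver alcohol dehydrogenase, fell in Cre plus livers at 40 h by 0.89 (SE 0.26, adjusted p = 0.031), and differed by −0.77 in Cre minus livers at 20 h (adjusted p = 0.085). Adh5, an alcohol dehydrogenase that also acts on formaldehyde bound to glutathione, fell in Cre minus livers at 20 h by 0.41 (SE 0.12, adjusted p = 0.029). Cyp2e1, the ethanol-oxidising cytochrome P450, fell in Cre plus livers at 40 h by 0.32 (SE 0.09, adjusted p = 0.027).

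Of 8 other aldehyde dehydrogenases tested, Aldh7a1 and Aldh1a1 were called at some time against 0 h. Over either genotype 20.5% of all probe sets were called at some time, so this count is near the background. Aldh7a1, which acts in lysine breakdown, fell in Cre minus livers by 0.80 at 20 h and by 0.66 at 30 h, and in Cre plus livers by 0.66, 0.74 and 0.73 (adjusted p from 0.0046 to 0.028). Aldh1a1, the cytosolic retinal dehydrogenase, fell in Cre plus livers by 0.63, 0.71 and 0.64 (adjusted p from 0.021 to 0.029) and differed by −0.49, −0.41 and −0.31 in Cre minus livers. Aldh1a2, Aldh1a7, Aldh3a1, Aldh3a2, Aldh9a1 and Aldh18a1 were called at none of these times. Aldh1a2 and Aldh18a1 had low mean values of 4.75 and 4.58, where array medians ran from 5.88 to 5.99. Little can be read from their lack of calls. Ephx2, soluble epoxide hydrolase and the other family member on the array, differed from 0 h by −0.13 to 0.24 (adjusted p from 0.52 to 0.86).

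Among the enzymes that make epoxides or conjugate the products, Cyp2b10, a phenobarbital-inducible P450, rose at 20 h by 2.10 in Cre minus livers (SE 0.50, adjusted p = 0.011) and by 1.97 in Cre plus livers (SE 0.50, adjusted p = 0.013). Cyp2f2 fell at all 3 times in both genotypes, by 0.94 to 1.43. Gsta3, a glutathione transferase, fell by 1.75 at 20 h in Cre minus livers (SE 0.33, adjusted p = 0.0028) and fell by 1.86 at 40 h in Cre plus livers (SE 0.32, adjusted p = 0.00069). Inmt, an amine methyltransferase, fell by 3.09 at 30 h in Cre minus livers and fell by 3.23 at 40 h in Cre plus livers. Nnmt, which methylates nicotinamide, rose at every time in both genotypes, by 1.42 to 2.06.

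Between genotypes, few of these enzymes were called. Of the 78, 1 was called at any time (1.28%), where 5.56% of all probe sets were; it was Cyp2d10, a P450, higher in Cre plus livers by 0.31 at 40 h (SE 0.08, adjusted p = 0.021). Over the 312 tests 27 had an unadjusted p under 0.05, a threshold for which no share of all probe sets is given. The median genotype difference of the 78 was 0.05, 0.06, 0.04 and −0.08 from 0 to 40 h, against medians of all genes within 0.01 of 0. Cyp2b10 had positive differences of 1.40 at both 30 and 40 h that did not pass (SE 0.54 and 0.47, adjusted p = 0.29 and 0.092). The count of 1 moved with the setting. It was 10 without the 3 arrays that stood apart, 24 with array weights and 0 with the replicate letter as a block. The share of all probe sets called under those settings is not given here, so nothing is read from these counts. The 8 other aldehyde dehydrogenases differed between genotypes by −0.61 (Aldh3a2 at 40 h, adjusted p = 0.36) to 0.31 (Aldh9a1 at 20 h). None of their 32 tests had an unadjusted p under 0.05, but Aldh1a2 and Aldh18a1 among them had mean values below the array medians. Ephx2 differed by −0.18 to −0.05.

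**Figure D4:**
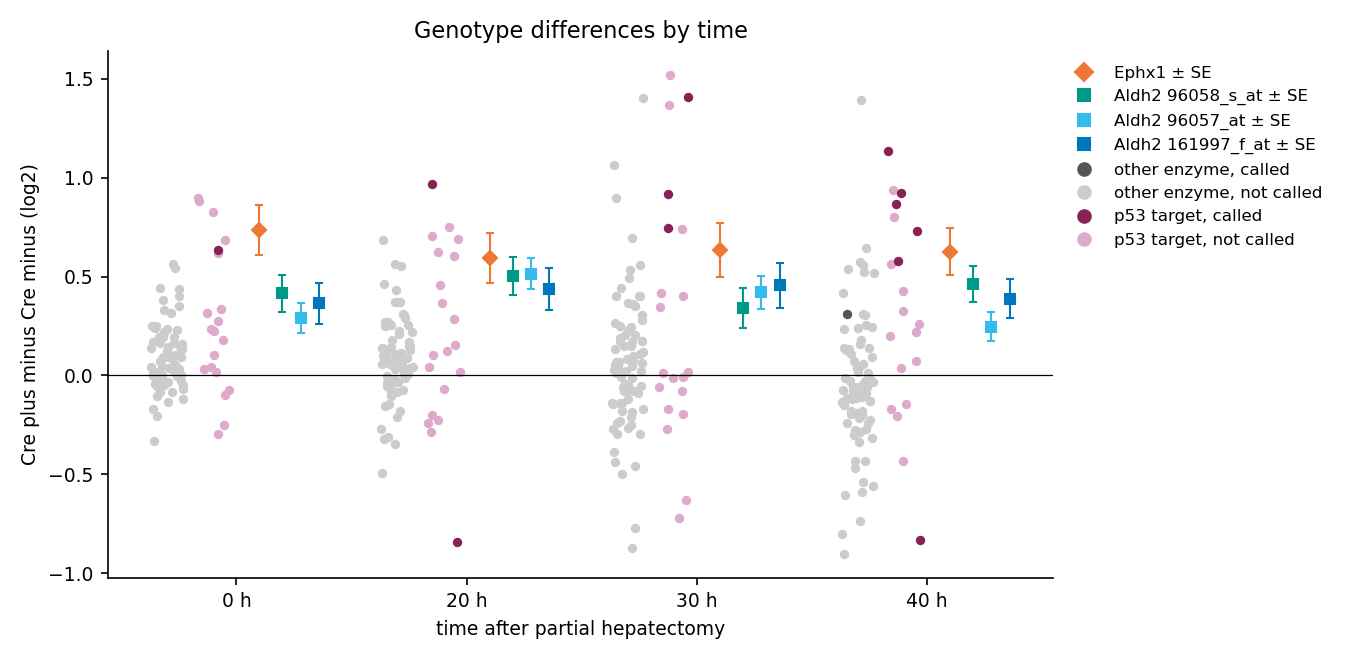
Log2 differences, Cre plus minus Cre minus, by time for Ephx1 and the 3 Aldh2 probe sets (± SE), 78 other detoxification enzymes and 20 p53 targets (points, dark where called). Ephx1 and Aldh2 were chosen from this contrast. Ephx1 stays between 0.60 and 0.74 and the Aldh2 probe sets between 0.25 and 0.51. The median of the other enzymes is within 0.08 of 0, and that of the p53 targets lies between 0.02 and 0.29. Single p53 targets differ as much or more, such as Mdm2 at 0.62 to 0.87, and others are lower, such as Pltp at −0.85 at 20 h.

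Regulators of detoxification genes and other stress programmes were set beside these values. Of 19 regulators tested, none was called between genotypes in limma, and 12 of the 76 tests had an unadjusted p under 0.05. No share of all probe sets is given for that unadjusted threshold. After surgery Cebpb, a liver transcription factor, rose at all times in both genotypes, by 0.99 to 1.75. Its relative Cebpa fell at 20 and 30 h in Cre minus livers and at all times in Cre plus livers, by 1.01 to 1.27. Of 17 targets of NRF2, the factor of the antioxidant response, 1 was called between genotypes, Sqstm1, higher by 0.75 at 40 h (SE 0.23, adjusted p = 0.0497). With 5.35% of all probe sets called at 40 h, 1 of 17 is near the background.

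Of 20 p53 targets tested, the number called higher in Cre plus livers was 1, 1, 3 and 5 from 0 to 40 h, while Pltp at 20 h and Ckap2 at 40 h were called lower. The share of all probe sets called higher was 0.0432, 0.0541, 0.13 and 2.28% at these times. Mdm2 was higher by 0.62, 0.62, 0.74 and 0.87 from 0 to 40 h, and passed at 30 h (SE 0.16, adjusted p = 0.040) and 40 h (SE 0.14, adjusted p = 0.00013). Phlda3 was higher by 0.83, 0.97, 0.74 and 0.92, and passed at 20 h (SE 0.17, adjusted p = 0.0059) and 40 h (SE 0.17, adjusted p = 0.00071). Zmat3, a gene for an RNA-binding zinc finger protein, passed at 0 h (0.64, SE 0.12, adjusted p = 0.034) and 40 h (0.73, SE 0.12, adjusted p = 0.00014). The kinase gene Plk2 passed at 30 h (0.92, adjusted p = 0.0093) and 40 h (0.58, adjusted p = 0.013). Btg2, an antiproliferative gene, passed at 30 h (1.41, adjusted p = 0.040), and Cdkn1a, the gene of the cell cycle inhibitor p21, at 40 h (1.14, adjusted p = 0.042). The list median was 0.23, 0.14, 0.02 and 0.29. Without the 3 arrays that stood apart, 4, 3 and 5 of these targets were called higher at 0, 20 and 30 h. The share of all probe sets in that setting is not given here.

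The genes whose pattern was most like each enzyme were ranked among 6785 genes by Pearson r over the 32 arrays, which share groups and batches. For Ephx1 they were Plk2 (r = 0.87), Zmat3 (0.80), Ubr4 (0.79), Mdm2 (0.77) and Dync1h1 (0.76). For Aldh2 they were Phlda3 (r = 0.81), Rrp1 (0.77), Mdm2 (0.77), Zmat3 (0.75) and Ephx1 (0.74), and Aldh2 stood at rank 8 for Ephx1. Over the 8 group means the r of Ephx1 with Aldh2 was 0.95. These coefficients describe the genotype difference that chose the genes, and have no test.

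With group and batch removed, the remaining variation of Ephx1 and Aldh2 96058_s_at among livers was compared as a single relation. Pearson's r was 0.38 (permutation p = 0.032) and Spearman's rho 0.35 (permutation p = 0.049) over 32 arrays. Removing group and batch ties the remaining values of a group to one another. The 32 values are thus not independent, and the p-values of this paragraph may be too small. Without the 2 livers farthest from the Ephx1 median, Cre plus 40 h replicates D and E, r was 0.21 (permutation p = 0.27), so the relation rested on those livers. Within PHX2 r was 0.55 over 15 arrays (permutation p = 0.034), and within PHX3 0.19 over 17 arrays (permutation p = 0.48). Without the 3 arrays that stood apart r was 0.17 (permutation p = 0.39).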

How the data were processed

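The authors deposited log2 expression values of 32 one-colour Affymetrix arrays; per the submitters' processing notes these came from RMA. Its version, and joint or separate normalization of the batches, were not found in the labels. The log base was taken from the range of 2.30 to 14.12. Gene symbols came from the platform annotation, for the 10833 probe sets with 1 gene and for Rps6. Filtering kept probe sets above the 30th percentile of an array on 3 or more arrays. limma 3.58.1 in R 4.3.3 fitted the 8 groups and batch (lmFit and eBayes, two-sided, Benjamini-Hochberg within each comparison). The number of arrays limits the precision. The code was tested on simulated data.

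The members, the lists and the comparisons were chosen with earlier results of these data known, and the alternatives for non-overlap after seeing the data. A listed gene was read on its probe set of highest mean. The genes named were all member probe sets, Rps6, both families, up to 4 members of a list by size of difference, and the 5 genes most like each enzyme. Beyond this rule, members behind counts of 5 or fewer and enzymes of alcohol oxidation were named after their values were seen. Permutation tests drew 100000 resamples with scipy 1.17.1. The labels do not say that replicate letters pair livers. Over 105 pairs of same-letter livers the median correlation of deviations was 0.04, with a range of −0.51 to 0.60. It was over 0.1 in 43 pairs, so the median cannot decide whether single livers were paired.

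Alternatives were median centring, quantile normalization, no batch term, no filter, a stricter filter, array weights, leaving out 3 arrays or each liver, each batch alone, the groups compared alone, all probe sets of a gene, and the replicate letter as a block.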

Additional observations from a re-analysis of the deposited data

Results flagged for a closer look

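In Cre minus livers at 40 h, replicate A had an Aldh2 value of 11.06 on probe set 96058_s_at, while the other 3 livers lay between 10.64 and 10.71. The gap was 0.84 of the range of the group, above Dixon's critical value for 4 samples. It was the only such liver in 28 groups of 4 or 5 values examined over the 4 probe sets, and chance gives about 1 in 20. The liver belongs to PHX3, where this probe set read higher. Replicates B and C of its group, at 10.65 and 10.71, belong to PHX3 as well. The cause of the high value was not tested.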

How the results depend on the processing

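The genotype differences of the 4 probe sets stayed positive in all 176 values under alternatives, from 0.21 to 0.82. They also stayed positive in all 128 with a liver left out. Ephx1 ran from 0.50 to 0.82, and from 0.51 to 0.79 with a liver left out. These values refit the same livers and the contrast that chose the genes, so their sign carries no support. With the replicate block, the letter as a further term for which no pairing is stated, Ephx1 was higher by 0.74, 0.60, 0.65 and 0.54. Of 440 time values under alternatives, 439 kept their side of the threshold; the exception was Ephx1 in Cre plus livers at 30 h with array weights (−0.34, adjusted p = 0.0040). All 316 values with a liver left out stayed uncalled. The sign of uncalled values changed in 47 and 37 of these. The Aldh2 96058_s_at batch difference was 0.12 with quantile normalization (adjusted p = 0.060). The residual correlation was 0.15 from the groups alone, 0.17 without the 3 arrays and 0.21 without the 2 farthest livers. The cause of these changes was not tested.

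Of the 78 other enzymes, the number called between genotypes at any time was 1, and was 24 with array weights, 10 without 3 arrays, 0 with the replicate block, 0 in PHX2 alone, 2 in PHX3 alone and 0 with the groups compared alone. The number called against 0 h was 34, and was 63 with array weights, 3 in PHX2 alone and 26 in PHX3 alone. Each batch alone compares fewer livers, and the cause of the gap between the batches was not tested. No share of all probe sets is given for these settings, so a change of all calls cannot be told from one of these enzymes. Of the counts by direction and comparison, 52 of 240 moved by over 1.5 times for these enzymes, 29 of 96 for p53 targets and 12 of 96 for Kupffer cell markers.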
